A study of Mus musculus with 2 samples.

Results

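The interleukin 10 (IL-10) and transforming growth factor beta (TGF-beta) axis was followed through 8 genes, Il10, Il10ra, Il10rb, Tgfb1, Tgfbr1, Tgfbr2, Smad7 and Cx3cr1, which were picked by symbol out of the 31053 features measured. All 8 were found in both libraries. IL-10 is a cytokine that restrains macrophages and dendritic cells. It binds a receptor made of the ligand-binding chain IL-10RA and the shared chain IL-10RB, and signals through JAK1, TYK2 and STAT3. In the gut wall, macrophages are both a source of IL-10 and a cell type that responds to it. TGF-beta 1 is secreted in a latent form and, once released, binds TGFBR2, which recruits and activates TGFBR1. That receptor activates the transcription factors SMAD2 and SMAD3, and SMAD7 is an inhibitor that blocks the receptor. CX3CR1, the receptor of fractalkine, is a textbook marker of macrophages settled in the gut, which are replaced from blood monocytes that carry more Ly6C.

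Cells of the mouse colon lamina propria, labelled as cd11b+ (CD11b, the product of Itgam, is a surface protein of myeloid cells), had been profiled by droplet single-cell RNA sequencing. Wild-type (WT) mice gave 1 library and the other came from mice labelled LncRNA17Rik knockout (KO), in which the long non-coding RNA that the study calls lncLy6c was cut out with Cas9 in zygotes, from before exon 1 to after exon 2, and is thus missing in all cell types. The study describes KO mice on a C57BL/6J background kept free of specific pathogens. A figure legend of the study gives the single-cell material as pooled from male mice of 8 weeks (n = 6) and does not say how many mice went into each library. The WT library is titled WTGFC, letters that neither the labels nor the study explain, so any other difference between the libraries that these letters stand for cannot be told apart from genotype. With 1 library for each genotype there was no test between genotypes. Every interval below is a 95% interval for counting error only. It leaves out the spread between mice and, for levels and ratios, the spread between cells. The labelled name of the deleted RNA matches no single feature symbol, so the deletion was not checked here.

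The WT library held 3185 barcodes with 22191774 unique molecular identifiers (UMIs, each standing for 1 captured RNA molecule), and the KO library 3020 barcodes with 23384895. The study states many more WT cells than the WT library has barcodes, while its KO number is close to the KO barcodes, so whether the WT library is the whole WT sample is not known. After the filter of the study 2597 and 2514 cells were left, with a median of 5073 and 6564.5 UMIs, and none of them shared a barcode between libraries. Only 40.0% of WT and 57.8% of KO cells held a UMI of Itgam, and clusters with B cell, T cell, plasma cell and epithelial markers were present, so the labelled cd11b+ gate did not describe all cells. Cells were clustered without the 8 genes or any other gene of the lists used below, and clusters were named from other markers. Of the large classes, resident macrophage-like cells (146 WT, 126 KO) and neutrophil-like cells (86 and 277) were clear by their markers. Other classes were split unevenly between libraries. A cluster with macrophage and monocyte markers in equal shares, called intermediate, held 628 WT and 43 KO cells, inflammatory monocyte-like cells numbered 92 and 487, and plasma cell-like cells 233 and 5. For that reason the resident, intermediate and monocyte-like cells were also pooled as macrophages and monocytes (866 and 656 cells, median 5358.5 and 9025.5 UMIs). The eosinophil-like class had raised Siglecf, Ccr3 and Alox15 and median depths of 799 and 971 UMIs, while the granule gene Epx was at 0 in both libraries. Its eosinophil markers summed to 1092 and 1714 CPM and its neutrophil markers to 7030 and 7284, beside 43161 and 73340 in neutrophil-like cells, so the name rests on few genes.

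Sequences of 2 kinds are shown, the DNA at the start of 2 of the genes and the primers of the study's own assay. The first is the 250 bases upstream of the start in RefSeq (GRCm38.p6) for Tgfb1, whose RNA was spread over most cell types, and for Cx3cr1, whose RNA was concentrated in resident macrophages. CG pairs are in capitals. RefSeq promoters were at hand for 4 of the 8 genes.
Tgfb1, chr7:25686752-25687001, plus strand: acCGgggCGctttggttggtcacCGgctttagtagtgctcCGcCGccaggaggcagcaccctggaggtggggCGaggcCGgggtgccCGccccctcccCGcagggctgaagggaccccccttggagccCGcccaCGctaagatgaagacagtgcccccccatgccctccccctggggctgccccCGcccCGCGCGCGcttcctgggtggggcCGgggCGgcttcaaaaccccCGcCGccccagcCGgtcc
Cx3cr1, chr9:120068297-120068546, minus strand: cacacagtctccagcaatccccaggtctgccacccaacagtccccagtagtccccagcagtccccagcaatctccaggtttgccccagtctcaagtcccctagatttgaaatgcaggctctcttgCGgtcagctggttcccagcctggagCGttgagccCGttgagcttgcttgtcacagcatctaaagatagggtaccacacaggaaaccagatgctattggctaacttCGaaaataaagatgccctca
The Tgfb1 promoter had 75.2% G and C and 21 CG pairs, more than 83.7% of 32851 mouse promoters of that length. The Cx3cr1 promoter had 53.6% G and C and 4 CG pairs, more than 37.8% of them, and the median promoter had 6. The other promoters at hand had 12 CG pairs for Tgfbr2 and, for the 2 starts of Tgfbr1, 29 (more than 93.2%) and 3, although Tgfbr1 RNA was also highest in resident macrophage-like cells among the large classes. No relation between these counts and the RNA levels was tested. The second kind is the pair of PCR primers the study used for the ligands, all in lower case since no base stands out.
Il10 forward: acaacatactgctaaccgac
Il10 reverse: ttctcacccagggaattcaa
Tgfb1 forward: gaaggacctgggttggaagt
Tgfb1 reverse: cgggttgtgttggttgtaga
Each primer matched transcripts of its own gene only. The Il10 product spans positions 252 to 411 of a transcript of 1310 bases, and the Tgfb1 product positions 1776 to 1911 of 2175, so the Tgfb1 primers lie near the 3′ end that the libraries count and the Il10 primers lie 899 bases from it.

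Il10, the ligand (GRCm38, chr1:131019845-131024974, plus strand, protein coding), was carried by macrophages and monocytes in both libraries. There it gave 519 counts per 1000000 UMIs of the class (CPM; interval 499 to 539) in WT, from 2629 UMIs, and 580.4 (561 to 600.3) in KO, from 3389 UMIs. The other cells together gave 30.8 and 48.2, so 86.0% of all WT and 81.0% of all KO Il10 UMIs lay in macrophages and monocytes. The log2 ratio of KO over WT was 0.16 (0.09 to 0.24), which is small beside the 2-fold line used here (a log2 ratio of at least 1 in either direction, asked of genes whose UMIs in the class sum to 50 or more).

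The counts past 2-fold were read against all genes with 50 or more UMIs in the same class. Of the 8 genes 0 were past 2-fold in macrophages and monocytes, beside 7.02% of 8607 genes, and the same count of 0 of 8 was found in resident macrophage-like cells (10.8% of all genes), inflammatory monocyte-like cells (8.38%) and cDC1-like cells (4.69%). B cell-like cells had 1 of 6 (7.32%), T cell-like cells 1 of 4 (21.3%), cDC2-like cells 2 of 8 (9.84%), eosinophil-like cells 3 of 7 (13.2%) and neutrophil-like cells 1 of 7 (13.1%). The share of the 8 genes past 2-fold was thus no higher than that of all genes in the 4 classes first named, and the counts in the other classes are of 1 to 3 genes. The median log2 ratio of all genes in macrophages and monocytes was -0.18. Relative to it Il10 stood at 0.34, and Il10ra at -0.27, Il10rb at -0.43, Smad7 at -0.36 and Cx3cr1 at -0.14.

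Within macrophages and monocytes the libraries differed in which cells held Il10. Resident macrophage-like cells gave 572 CPM (525 to 622) in WT and 1119.8 (1056 to 1186) in KO, which gives a log2 ratio of 0.97 (0.82 to 1.12) that lies just under the 2-fold line. Intermediate cells gave 510.3 in WT and 639.98 in KO. In KO 5 of the 43 intermediate cells held 75.7% of the 140 UMIs, and the share of thinned cells with a UMI was 33.7% in WT and 20.8% (7.13 to 42.2) in KO. Inflammatory monocyte-like cells gave 486 (434 to 543) and 456 (437 to 476). The log2 ratio of the monocyte-like cells, -0.092, kept its sign in 1 of 10 other ways of processing and reached 1.19 with a stricter cell filter. In WT the intermediate and the monocyte-like levels did not differ beyond counting error, and the resident level stood 0.16 (0.02 to 0.30) above the intermediate one on the log2 scale. The share of thinned WT cells with a UMI did not follow that order, at 30 of 108 resident, 33.7% of intermediate and 26 of 90 monocyte-like cells. In KO the resident level was 1.30 (1.19 to 1.40) above the monocyte-like level, against 0.23 (0.03 to 0.44) in WT. The direction was not the same in each monocyte-like cluster. In the largest one, with all 10 monocyte markers raised, Il10 was at 264 in WT and 343 in KO. The smallest had 189 and 439. The third, led by Retnla, Lpl and Fn1, went the other way, with 967 in 26 WT cells and 622 in 158 KO cells, but 5 of the 26 WT cells held 67.0% of its 209 WT UMIs.

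More resident macrophage-like cells held Il10 in KO. Thinned to 2000 UMIs a cell, so that depth is equal, a UMI was held by 27.8% (19.6 to 37.2) of the 108 cells in WT and 48.6% (38.9 to 58.4) of the 109 in KO, with 38 and 17 shallower cells left out. Without thinning the shares were 33.6% and 61.9%. Il10 was also uneven between cells. The 5 highest cells held 43.6% of the WT and 28.2% of the KO UMIs of the class, and the highest single cell held 103 UMIs in WT and 73 in KO. Without those 5 cells of each library the log2 ratio rose to 1.29, and the mean of the cells' own values gave 1.31, both past the 2-fold line. Over 12 other ways of processing it stayed above 0, between 0.42 and 1.31, and was past 2-fold in 4. In WT 1 cell of the class with a UMI of Foxp3, the transcription factor of regulatory T cells, held 33 of the 548 Il10 UMIs. Splits chosen after values were seen gave the following. In KO the 41 resident macrophage-like cells with a UMI of Ifnb1 (interferon beta) had 1789.5 CPM of Il10 and the 85 without had 719.8, while no WT cell of the class had an Ifnb1 UMI. The median depth of these cells was 8745 and 6553 UMIs in KO and 5162 in WT, and its part in the result was not tested. Among all macrophages and monocytes, cells with a UMI of Ly6c2, the monocyte marker, had less Il10 in both libraries, with 421 against 626 in WT and 377 against 757 in KO. In resident macrophage-like cells alone this was not so, with 589 against 569 in WT and 1786 against 1105 in KO, where 13 WT and 2 KO cells held a Ly6c2 UMI.

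**Figure D1:**
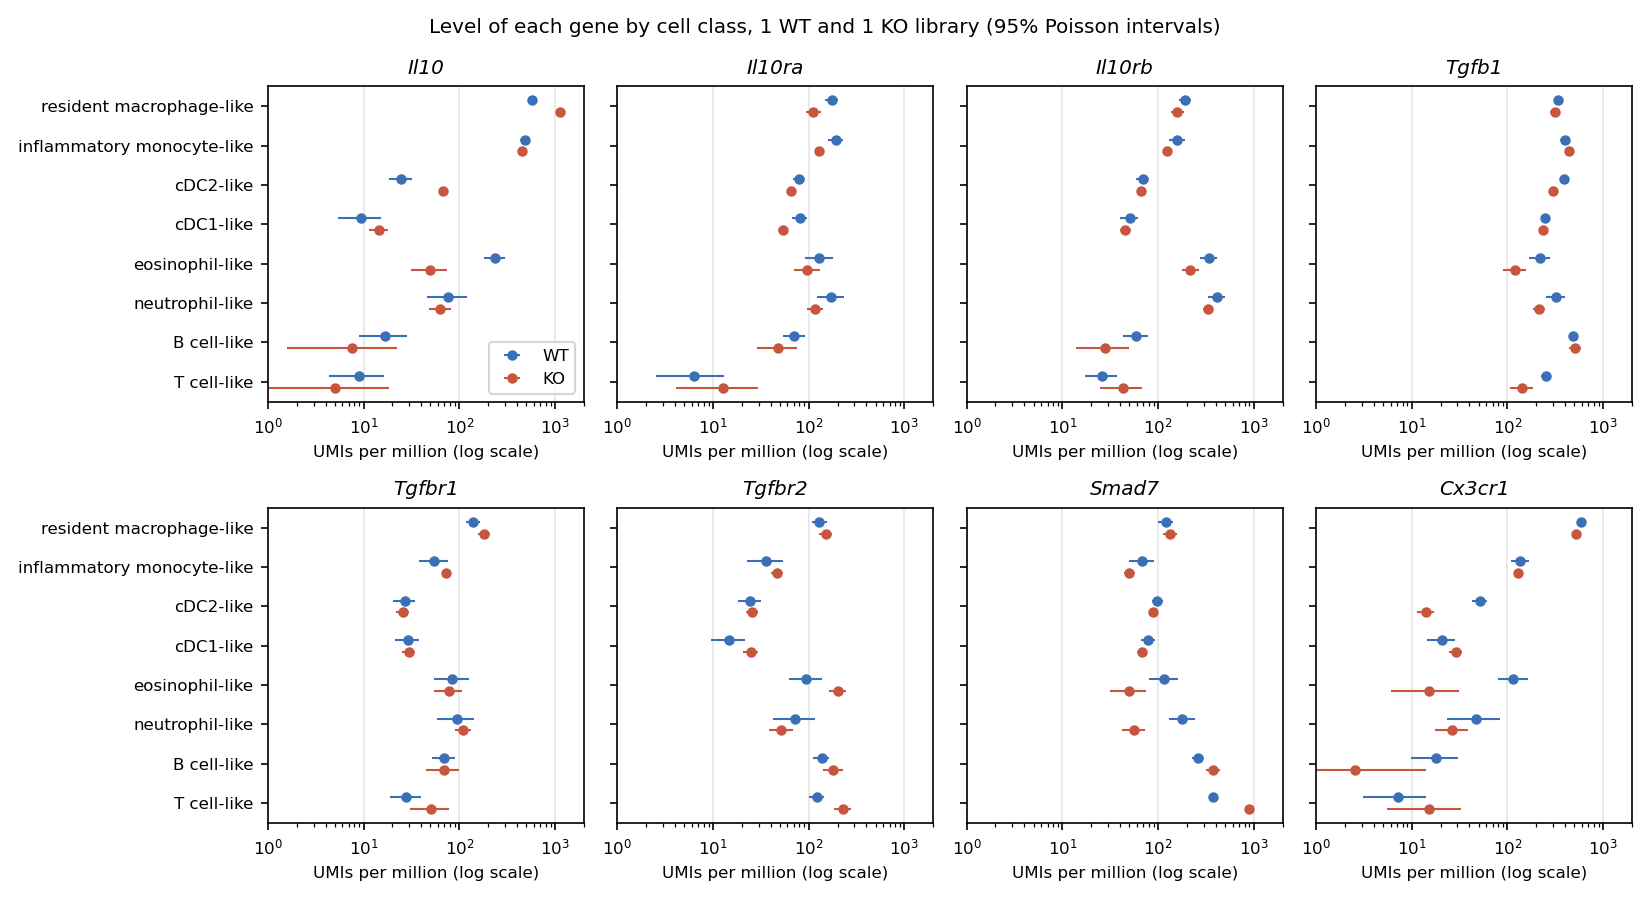
CPM of each of the 8 genes (log axis that starts at 1, where lower ends of some intervals are cut) by cell class, with 1 point for the WT and 1 for the KO library and bars for the 95% counting interval. Of the classes drawn, Il10 and Cx3cr1 have their highest summed levels in resident macrophage-like cells in both libraries (572 and 1119.8 for Il10, 587 and 518 for Cx3cr1). Tgfb1 lies between 119 and 508 in the classes with 50 or more cells of both libraries. Intermediate cells are not drawn. By share of thinned WT cells with an Il10 UMI, resident (30 of 108) and monocyte-like cells (26 of 90) were alike.

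Outside macrophages and monocytes, Il10 in several named classes lay close to what free RNA in the droplets can give. Epithelial-like cells, which should lack the gene, had 10.9 CPM in WT (2.13% of 94 thinned cells) and 0 of 151908 UMIs in KO, which allows up to 19.7. cDC1-like cells (dendritic cells that present antigen to CD8 T cells) had 9.39 and 14.3, T cell-like cells 8.97 and 5.05 and B cell-like cells 16.7 and 7.62, all within a like range. The T cell-like class did not hold all cells with T cell genes. An unnamed cluster of 73 WT and 46 KO cells, led by Mcpt1, Mcpt2 and Icos and with raised Cd3e, Cd3d and Cd3g, had 401 and 194 CPM of Il10. It held 140 of the 429 WT and 63 of the 795 KO Il10 UMIs found outside macrophages and monocytes, and 107 and 54 of them lay in its cells with a Cd3e UMI. In this cluster 5 cells held 65.7% of the WT and 84.1% of the KO Il10 UMIs. Neutrophil-like cells, which also served as background, were higher, at 76.6 and 63.2 (8.77% and 6.85% of thinned cells). Few of them made this level, since 5 of 86 WT cells held 88.9% of 18 UMIs and 5 of 277 KO cells 61.3% of 62. Their log2 ratio, -0.28, ranged from -2.10 to 1.51 over 10 other ways of processing. The median depth was 15367 and 4967 UMIs in epithelial-like and 2321 and 3026 in neutrophil-like cells. In cDC2-like cells (dendritic cells that present antigen mainly to CD4 T cells) Il10 was at 24.5 (18.3 to 32.0) in WT and 66.9 (61.0 to 73.1) in KO, which gives a log2 ratio of 1.45 (1.04 to 1.89). The ratio was past 2-fold in 9 of 11 other ways of processing and was 0.75 with each library clustered alone and 0.27 with each cell classed by its own marker score. That excess lay in a cluster led by Ccl17 and Mgl2, with 185 CPM in 123 KO cells. Of its 349 KO UMIs 5 cells held 53.6%. Its 31 KO cells with C1q UMIs had 348.96 CPM and the 92 without had 125.7. The same cluster had 3 WT cells, with 1 Il10 UMI. In the main cDC2-like cluster the intervals overlapped, at 24.6 (18.3 to 32.2) in 200 WT and 25.1 (21.04 to 29.7) in 355 KO cells. In KO the cluster led by Ccl17 also had more resident macrophage markers than the main one, summing to 494 against 113 CPM over the 10 markers, and in the whole class without cells holding C1q UMIs the ratio was 1.21 (0.72 to 1.74).

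Eosinophil-like cells showed the opposite direction for Il10, 235 (182 to 298) in WT and 49.6 (31.4 to 74.4) in KO, which gives a log2 ratio of -2.24 (-2.99 to -1.54). Of the 67 and 23 UMIs behind these levels, 48 and 8 came from the 39 WT and 10 KO cells that held a UMI of C1qa, C1qb or C1qc, which are macrophage genes. The 10 resident macrophage markers summed to 1383 and 677 CPM in this class, with 2 and 3 of them at 0. In the cells without C1q UMIs Il10 was at 97.1 and 33.3, a log2 ratio of -1.55 (-2.63 to -0.49). With a filter of at least 500 genes and at most 10% mitochondrial UMIs the direction turned, to 0.42, in the cells left, and 7 of 9 other ways of processing kept the call.

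Il10ra, the ligand-binding receptor chain (chr9:45253837-45269149, minus strand), was found across the myeloid classes. Macrophages and monocytes gave 172 CPM (161 to 184) in WT and 126 (117 to 136) in KO, which gives a log2 ratio of -0.45 (-0.59 to -0.30). Every class of that group was lower in KO by its point value. Resident macrophage-like cells had 174 and 112, a log2 ratio of -0.64 (-0.99 to -0.29), intermediate cells 167 and 128.0, and inflammatory monocyte-like cells 193 and 129.5, a log2 ratio of -0.58 (-0.86 to -0.29). The interval of the intermediate cells held 0. In the WT order of levels monocyte-like, resident, neutrophil-like (170.3), intermediate and eosinophil-like cells (129.5) did not differ from their neighbours beyond counting error, and cDC1-like cells followed at 80.4. They had 53.96 in KO, which gives a log2 ratio of -0.58 (-0.87 to -0.27). T cell-like and epithelial-like cells had 6.28 and 4.37 in WT, the lowest levels of the WT order.

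Il10rb, the chain shared with other receptors of the IL-10 and interferon lambda families (chr16:91406164-91425834, plus strand), was highest in neutrophil-like cells, with 413 (335 to 504) in WT and 331 (296 to 369) in KO. In WT eosinophil-like cells (339.6) did not differ from them beyond counting error. Exons of Il10rb share 569 bases with the gene model Gm21970 on the same strand, so reads from those bases are uncertain. Macrophages and monocytes had 201 (189 to 214) and 132 (123 to 141), a log2 ratio of -0.61 (-0.75 to -0.47), the lowest ratio of the 8 genes there, which was -0.28 when each cluster had equal weight. Resident macrophage-like cells had 193 and 159, a log2 ratio of -0.28 whose interval (-0.60 to 0.03) held 0. B cell-like cells had 59.1 (43.3 to 78.8) and 27.9 (13.9 to 49.96), a log2 ratio of -1.08 (-2.18 to -0.11). That call rests on 46 and 11 UMIs and was kept in 4 of 10 other ways of processing. Both receptor chains were seen in the same cell in 70 of 685 thinned WT and 32 of 585 KO macrophages and monocytes. In WT 31.1% of the cells with an Il10rb UMI and 28.0% of those without held Il10ra, and in KO 23.9% and 23.3%, so detection of one chain said little of the other at this depth.

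Tgfb1, the TGF-beta ligand (chr7:25687002-25705077, plus strand), was spread over most classes. Among named classes with at least 50 cells in a library B cell-like cells led both orders, with 484 CPM (437 to 536) in WT and 508 (440 to 583) in KO, and in WT intermediate cells (434) did not differ from them beyond counting error. The few NK cell-like cells (26 and 41) had 585 and 446. An unnamed cluster of 69 WT and 50 KO shallow cells (median 1641 and 943 UMIs), with no raised marker of any class, had 806 and 1171. Tgfb1 in macrophages and monocytes was at 412 (395 to 430) and 413 (396 to 430), a log2 ratio of 0.0025 (-0.08 to 0.09). Its interval leaves room for a difference of at most 0.09 on the log2 scale by counting error. Epithelial-like cells had 17.9 in WT. Resident macrophage-like cells had less than monocyte-like cells in both libraries, 340.1 against 402 in WT and 314 against 437 in KO, with log2 ratios of -0.24 (-0.48 to -0.0015) and -0.47 (-0.65 to -0.30). Among the classes with at least 50 cells of each library, intervals that did not hold 0 put Tgfb1 lower in KO in 4, T cell-like cells (251 and 141, log2 -0.83), eosinophil-like cells (217 and 119, log2 -0.87), neutrophil-like cells (319 and 213, log2 -0.58) and cDC2-like cells (388 and 301, log2 -0.36), none past 2-fold. The few mature dendritic cell-like cells (19 and 40) had 225.0 and 112, a log2 ratio of -1.0035 (-1.60 to -0.38) from 36 and 70 UMIs, which is just past the line.

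The TGF-beta receptor genes shared a pattern within the macrophage group, higher in resident than in monocyte-like cells in both libraries. Tgfbr1, the type I receptor (chr4:47353222-47414931, plus strand), gave 139 (116 to 164) in WT and 182 (157 to 209.7) in KO resident macrophage-like cells, and 54.2 and 73.0 in monocyte-like cells. The log2 ratio of resident over monocyte-like cells came to 1.36 (0.81 to 1.94) for WT and 1.32 (1.05 to 1.58) for KO. Tgfbr2, the type II receptor (chr9:116084293-116175360, minus strand), gave 129 (108 to 154) and 151 (128 to 176) in resident and 35.6 and 46.7 in monocyte-like cells, log2 ratios of 1.86 (1.21 to 2.57) and 1.69 (1.39 to 2.00). Between libraries neither receptor differed beyond counting error in macrophages and monocytes as a whole, with log2 ratios of 0.0067 (-0.17 to 0.19) for Tgfbr1 and 0.025 (-0.19 to 0.24) for Tgfbr2. In resident macrophage-like cells Tgfbr1 was 0.39 (0.06 to 0.72) higher in KO on the log2 scale, and the Tgfbr2 interval held 0. The Tgfbr1 ratio kept its sign in 11 of 12 other ways of processing, with a range of -0.12 to 0.81.

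Outside macrophages, fibroblast-like cells had the highest Tgfbr2 level, 381 (326 to 444) in 80 WT and 362 (286 to 453) in 21 KO cells, and mature dendritic cell-like cells nearly lacked it, with 1 UMI in each library. T cell-like cells had 121 (102 to 143) in WT and 227 (183 to 279) in KO, which gives a log2 ratio of 0.91 (0.51 to 1.30) just under the 2-fold line. Within the T cell-like clusters it was smaller, 0.60 (0.01 to 1.16) in the one led by Gzma and Gzmb and 0.49 (-0.21 to 1.22) in the one led by Lef1 and Tcf7, and the cells without an Itgae UMI had 161 (111 to 227) and 231 (184 to 286). Eosinophil-like cells had 94.5 (62.3 to 138) and 200.5 (162 to 246), a log2 ratio of 1.09 (0.45 to 1.76), and in those without C1q UMIs it was 0.86 (0.18 to 1.60). That call held in 7 of 9 other ways of processing.

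**Figure D2:**
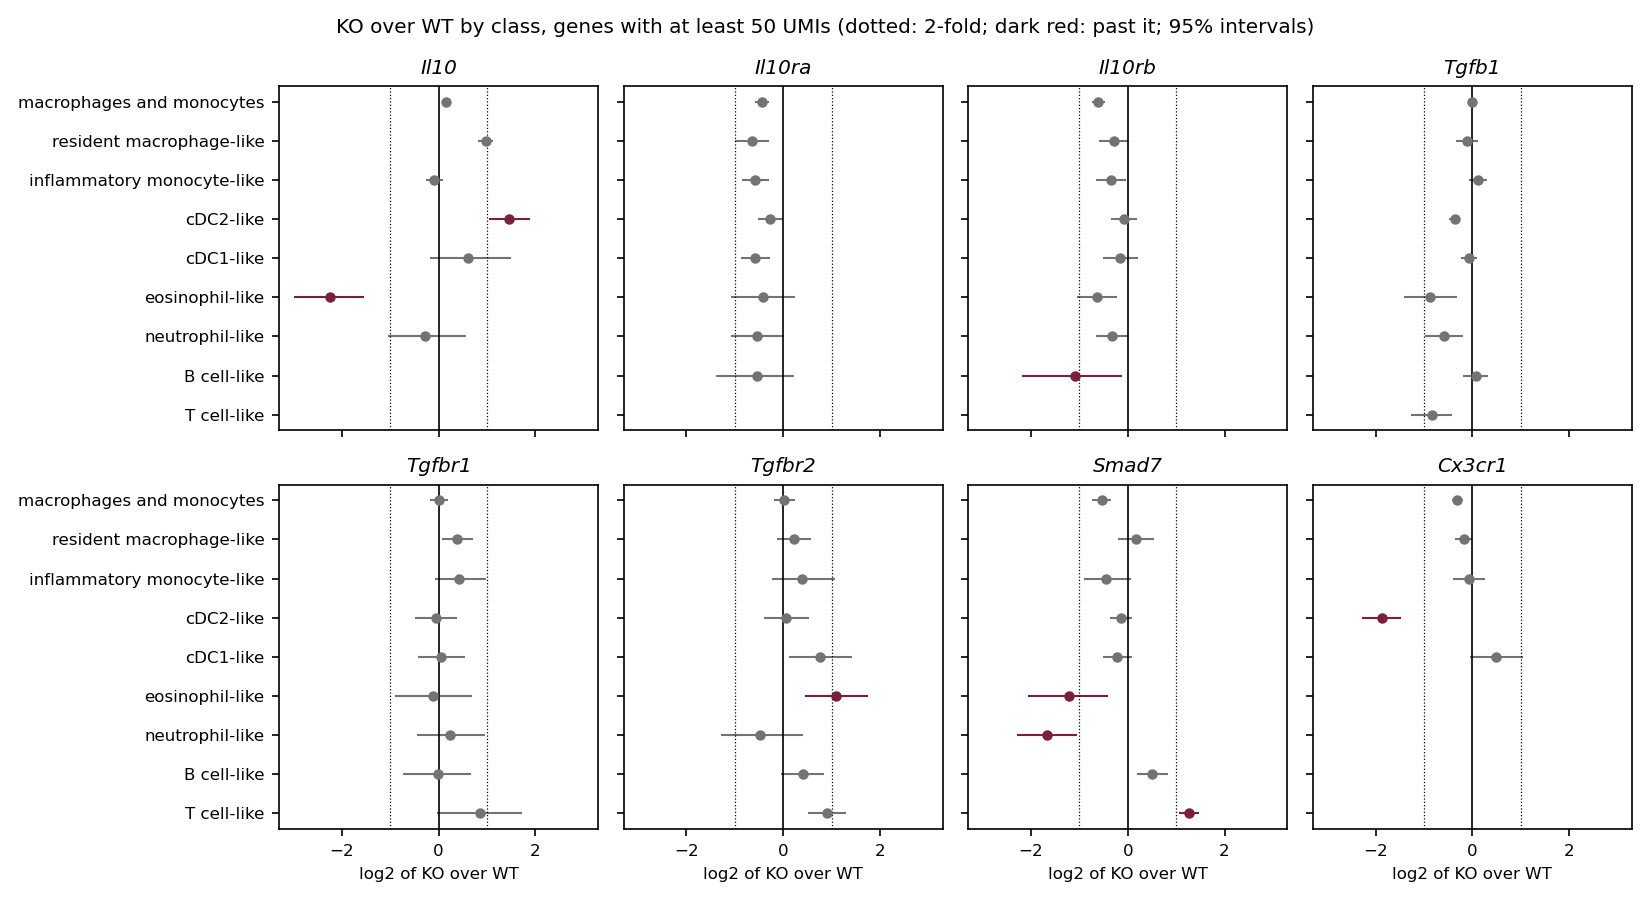
Log2 ratio of KO over WT for each of the 8 genes by cell class, with 95% counting intervals and dotted lines at 2-fold, drawn where a class holds at least 50 UMIs of the gene. All 8 genes lie inside the lines in macrophages and monocytes, between -0.61 (Il10rb) and 0.16 (Il10), and in the 8 single classes 8 of 56 pairs of gene and class (dark red) lie outside them. The share of all genes outside them ran from 4.69% (cDC1-like cells) to 21.3% (T cell-like cells) over these classes.

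Smad7, the inhibitor of the TGF-beta receptor (chr18:75367529-75395935, plus strand), differed from the other 7 genes in being lower in macrophages and monocytes than in the other cells together, 94.9 against 132 in WT and 65.6 against 114.8 in KO. Of the named classes with at least 50 cells T cell-like cells led with 376 (341 to 414) in WT and 898 (808 to 997) in KO, which gives a log2 ratio of 1.26 (1.05 to 1.46), while the few NK cell-like cells had 418 and 446. Both T cell-like clusters moved that way. The one led by the cytotoxic genes Gzma and Gzmb, 142 WT and 33 KO cells, had 377 and 952, and the one led by Lef1 and Tcf7, genes of naive T cells, 27 and 31 cells, had 362 and 834. The unnamed cluster with raised Cd3e, Cd3d and Cd3g, which lay outside this class, went the other way. It had 421 in WT and 293 in KO, a log2 ratio of -0.52 (-0.91 to -0.14). Of the thinned T cell-like cells 44.6% in WT and 75.8% in KO held a Smad7 UMI. In those without a UMI of Itgae, the gene of the CD103 integrin chain, the ratio was 1.06 (0.72 to 1.41). The call was kept in 8 of 11 other ways of processing, with a range of 0.80 to 1.49. B cell-like cells had 262 and 373, a log2 ratio of 0.51 (0.19 to 0.82).

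Neutrophil-like and eosinophil-like cells went the other way for Smad7. Neutrophil-like cells had 179 (129 to 242) in WT and 56.0 (42.2 to 72.9) in KO, which gives a log2 ratio of -1.67 (-2.28 to -1.06), and all 10 other ways of processing kept it past 2-fold. Their resident macrophage markers summed to 1056 and 574 CPM, with 3 and 2 of 10 at 0. The 6 B cell markers, genes of a class high in Smad7, summed to 319 CPM in WT (0 of 6 at 0) and 1.02 in KO (5 of 6 at 0). The ratio was -1.52 (-2.23 to -0.79) in the cells without C1q UMIs and -1.63 (-2.27 to -0.96) in the 77 WT and 276 KO cells without a B cell marker UMI, the latter computed after values were seen. Eosinophil-like cells had 115.5 and 49.6, a log2 ratio of -1.22 (-2.05 to -0.41), which without cells holding C1q UMIs was -0.77 with an interval (-1.74 to 0.23) that held 0. The eosinophil-like ratio was past 2-fold in 4 of 9 other ways of processing. In macrophages and monocytes the log2 ratio was -0.53 (-0.73 to -0.34), and -0.046 when each cluster had equal weight. Its clusters disagreed. The largest monocyte-like cluster had 72.2 and 26.1, the one led by Retnla 37.0 and 74.4 (the ratio of all monocyte-like cells, -0.44, was past 2-fold in 3 of 10 other ways of processing), and resident macrophage-like cells 120.0 (99.1 to 144) and 134 (113.0 to 159), an interval of the log2 ratio (-0.20 to 0.53) that held 0.

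Cx3cr1, the fractalkine receptor (chr9:119901616-120069879, minus strand), marked resident macrophage-like cells although it was used neither to cluster nor to name them. They gave 587 CPM (540.0 to 638) in WT and 518 (475 to 564) in KO, and 55.6% of 108 and 56.9% of 109 thinned cells held a UMI. Intermediate cells had 172 and 133 and monocyte-like cells 136 and 129, so that the log2 ratio of resident over monocyte-like cells came to 2.11 (1.78 to 2.45) for WT and 2.01 (1.83 to 2.18) for KO. Macrophages and monocytes held 82.1% of the WT and 77.3% of the KO UMIs of the gene. Exons of Cx3cr1 overlap 78 bases of the gene model Gm33858 on the opposite strand. Between libraries resident macrophage-like cells had a log2 ratio of -0.18 (-0.35 to -0.0074), whose sign was kept in 7 of 12 other ways of processing, against -0.31 (-0.43 to -0.20) in macrophages and monocytes. The latter was -0.035 with the stricter cell filter. Resident cells made up 146 of 866 of these cells in WT and 126 of 656 in KO. Epithelial-like cells had 0 UMIs in WT, which allows up to 1.31 CPM, and mature dendritic cell-like cells had 0 in both libraries.

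In cDC2-like cells Cx3cr1 was at 51.2 (42.1 to 61.7) in WT and 13.98 (11.4 to 16.99) in KO, which gives a log2 ratio of -1.87 (-2.28 to -1.47). Few cells made this difference. The 5 highest WT cells held 73.0% of 111 UMIs, the highest alone 44, and without the 5 highest cells of each library the log2 ratio was -0.72, no longer past 2-fold, while the other 10 of 11 ways of processing kept the call. Among macrophages and monocytes, cells with and without Cx3cr1 held Il10 about as often once thinned. In WT 29.4% of thinned cells with a Cx3cr1 UMI and 33.2% of those without held an Il10 UMI, and in KO 32.7% and 33.3%. Levels summed over all UMIs of these cells were 505 with and 537 without Cx3cr1 in WT, and 636 (610 to 663) and 499.95 (472 to 529) in KO. In monocyte-like cells they were 279.8 and 681 in WT and 474 and 435 in KO, so the direction was not the same in both libraries.

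**Figure D3:**
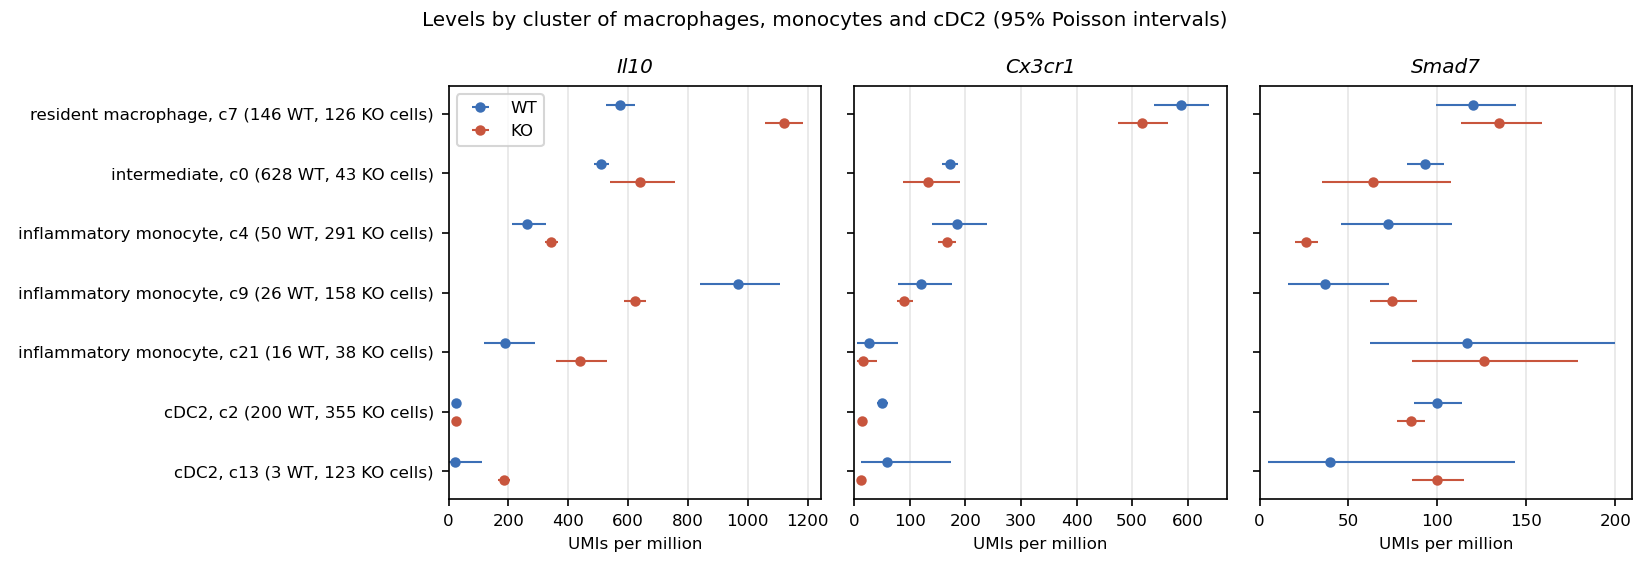
CPM of Il10, Cx3cr1 and Smad7 (linear axes from 0) in single clusters of macrophages, monocytes and cDC2-like cells, with 1 point for each library and 95% Poisson intervals. Il10 is higher in KO in resident macrophage-like cells (572 against 1119.8) and lower in the monocyte-like cluster led by Retnla (967 against 622, where 5 of 26 WT cells hold 67.0% of the WT UMIs), and Cx3cr1 is highest in resident macrophage-like cells in both libraries.

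Other genes of both pathways were read from lists of 55 genes beside the members. Of these, 39 had at least 50 UMIs in macrophages and monocytes, of which 0 were past 2-fold higher and 4 lower in KO (215 and 389 of all 8607 genes), with a median log2 ratio of -0.16 beside -0.18 for all genes. The 4 were Il22, Il22ra2, Tgfbi and Ctla4. All 83 Il22 UMIs, the IL-10 family cytokine that acts on epithelium, came from 1 WT cell, and Ctla4, an inhibitory T cell receptor, was at 14.2 and 1.71 CPM. Il22ra2, the soluble decoy receptor of IL-22, was at 63.1 (320 UMIs) in WT and 14.7 (86 UMIs) in KO. Of these UMIs 319 and 83 lay in resident macrophage-like cells, with levels of 333 and 80.3 and a log2 ratio of -2.05 (-2.42 to -1.70). The gene was also found in cDC2-like cells, with 161 and 253 UMIs, levels of 74.3 and 35.0 and a log2 ratio of -1.08 (-1.38 to -0.79), and an unnamed cluster of 52 WT and 21 KO cells held 1 and 38 UMIs. Tgfbi, a matrix protein induced by TGF-beta, was at 1440.3 and 635, a log2 ratio of -1.18 (-1.24 to -1.13). Resident macrophage-like cells had 1156 and 432 of it, a log2 ratio of -1.42 (-1.58 to -1.26). Monocyte-like cells had 933 and 666, a log2 ratio of -0.49 (-0.61 to -0.36) that was not past 2-fold. Tgfbi was also among the 10 genes that led the intermediate cluster, which held 628 WT and 43 KO cells of the pooled group. The part of this uneven make-up in the pooled Tgfbi ratio was not tested.

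None of the 7 IL-10 response genes was past 2-fold in macrophages and monocytes, and their median log2 ratio was -0.46, beside -0.18 for all genes. Socs3, the feedback inhibitor of cytokine signals, had 223 and 227 CPM, with an interval of the ratio that held 0. The others had lower values in KO, among them Il4ra, a receptor chain of IL-4 (201 and 104, log2 -0.95), Etv3, a transcriptional repressor (815 and 590.3, log2 -0.46), and Il1rn, the antagonist of the IL-1 receptor (963 and 755, log2 -0.35). In resident macrophage-like cells alone, 2 of 7 were past 2-fold lower, Nfil3 (122 and 32.9) and Bcl3 (125 and 59.95), where 348 of all 4552 genes were. The list median there was -0.14, beside -0.22 for all genes. Sbno2 had a log2 ratio of -0.53 (-0.96 to -0.11), and Socs3, Etv3, Il1rn and Il4ra had -0.14, 0.14, 0.02 and -0.08 with intervals that held 0. In macrophages and monocytes as a whole the signal carriers Jak1, Tyk2 and Stat3 had log2 ratios of -0.098, -0.16 and -0.066, with intervals that held 0, as did those in resident cells. Maf, a transcription factor known to act on Il10, was at 125.5 and 132 in the whole group and at 257 and 331 in resident macrophage-like cells, where its log2 ratio was 0.37 (0.13 to 0.61). The other listed factors of Il10 did not share this, with Prdm1 at -0.68 (-1.06 to -0.31) and Batf at -0.11 in resident cells. The Batf interval held 0. In monocyte-like cells Maf had -0.57 (-0.91 to -0.21) and Prdm1 0.68 (0.25 to 1.13).

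Of the TGF-beta lists, the 9 inhibitors were all measured in macrophages and monocytes and 0 were past 2-fold, with a median of -0.41, beside -0.18 for all genes. Ski, Smurf1 and Smurf2, which with SMAD7 hold back the pathway, had log2 ratios of -0.41, -0.53 and -0.59, and Pmepa1, itself a target of the pathway, had 0.27. In resident macrophage-like cells alone the median of the 6 measured inhibitors lay above 0, at 0.25, beside -0.22 for all genes. There Skil, a repressor related to Ski, had 0.70 (0.52 to 0.88), Pmepa1 0.57 (0.35 to 0.79) and Ski 0.33 with an interval that held 0. Smad2, Smad3 and Smad4, which carry the signal, had intervals that held 0 in macrophages and monocytes. The genes of latency and activation did not move together, and the 6 measured in macrophages and monocytes had a median of 0.22. Nrros, which anchors latent TGF-beta 1 on macrophages, was at 252 and 160 (log2 -0.66) in macrophages and monocytes. In resident macrophage-like cells Itgav was higher in KO, at 100 and 193 (log2 0.95, 0.59 to 1.32). Furin was also higher there, at 136 and 183 (log2 0.43, 0.10 to 0.76). Thbs1, an activator of latent TGF-beta, was at 868 and 919 in macrophages and monocytes, at 188 and 132 in resident macrophage-like cells (log2 -0.50, -0.83 to -0.17) and at 2100.5 and 4933 in eosinophil-like cells, a log2 ratio of 1.23 (1.10 to 1.36).

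**Figure D4:**
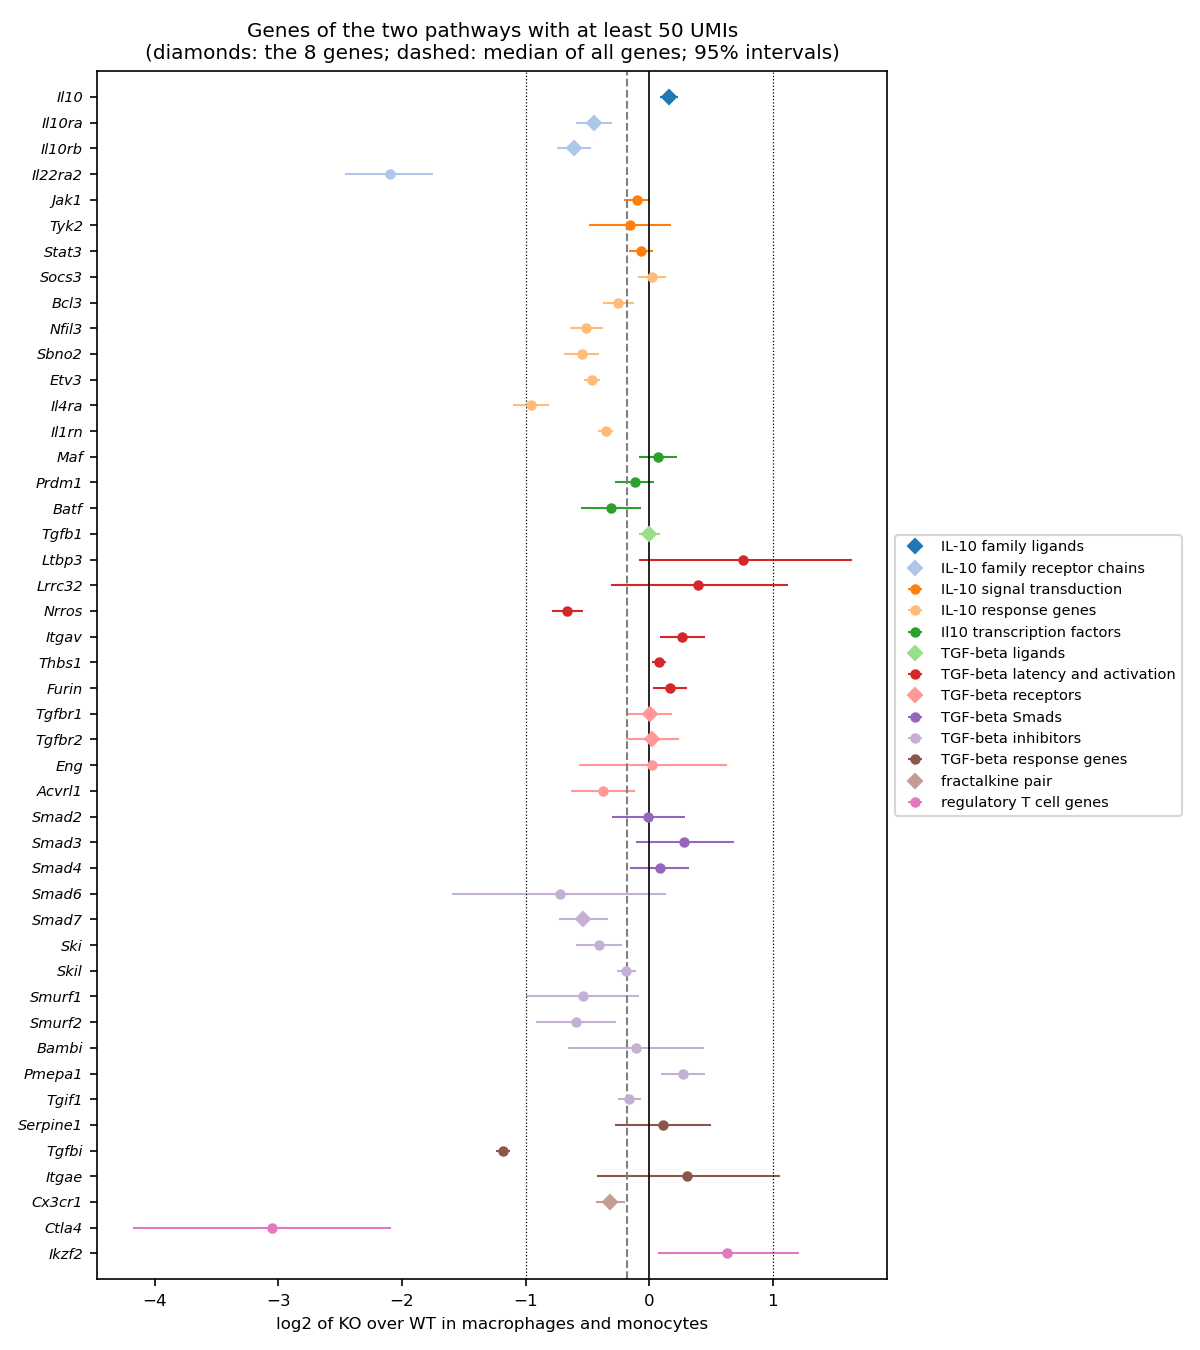
Log2 ratio of KO over WT in macrophages and monocytes for the 46 listed genes with at least 50 UMIs and a finite ratio, grouped by role, with 95% counting intervals, dotted 2-fold lines and a dashed line at the median of all genes, -0.18. Il22ra2, Tgfbi and Ctla4 lie past the lower line and no gene lies past the upper one.

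In other classes the listed genes moved in both directions. T cell-like cells had 2 of 19 measured genes past 2-fold higher, Socs3 (33.2 and 156) and Il4ra (126 and 338), and 4 lower, where 143 of all 3975 genes were higher and 702 lower. Among the 4 was Itgae, which TGF-beta induces in T cells of the gut, at 588 in WT and 22.7 in KO, which gives a log2 ratio of -4.70 (-5.83 to -3.76). The make-up of the class also differed, with 127 of 169 WT and 5 of 64 KO cells holding an Itgae UMI and 142 and 33 cells in the cluster led by Gzma and Gzmb. In cDC2-like cells 5 of 36 were higher and 3 lower, beside 270 and 503 of all 7855 genes, with Lrrc32, a docking protein of latent TGF-beta, at 9.23 and 23.95 and Itgae at 190.1 and 75.5. Inflammatory monocyte-like cells had 2 of 30 higher, Smad3 (10.8 and 25.5) and Pmepa1 (7.74 and 31.2), and 0 lower, beside 237 and 325 of all 6706 genes. The median log2 ratios of the listed genes were 0.039 in T cell-like, 0.046 in cDC2-like and -0.24 in inflammatory monocyte-like cells, where those of all genes were -0.23, -0.21 and -0.13.

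Genes with the most similar levels were looked for among 9157 genes over 16 points, the 8 classes with at least 50 cells of each library times 2 libraries, as Pearson correlation of log2 levels. Points of 1 library share its depth and its free RNA. Among the closest to Il10 were Anxa3 (r = 0.98) and Trem2 (0.95), a lipid receptor of macrophages, which ranked 2 and 3 by Spearman correlation. Cx3cr1 was closest to Sash1 (0.98), Selenop (0.97) and the complement gene C1qc (0.97). Il10ra went with Lyn, Prkcd and Spi1 (0.94 to 0.92), the last being PU.1, a transcription factor of myeloid cells. By Spearman correlation these ranked only 192, 24 and 61, and Selenop and C1qc ranked 39 and 12 for Cx3cr1. Il10rb went with Cd300ld, Il1rn and Rab20 (0.97 to 0.96).

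Among the TGF-beta members, Tgfb1 was closest to Pou2f2, Snx9 and Pold4 (0.86 to 0.84), Tgfbr1 to Wdr81, Dnajb9 and Sec14l1 (0.94 to 0.87), and Tgfbr2 to Ints6, Mindy2 and Tcp11l2 (0.90 to 0.86). Smad7 was closest to Tecpr1, Gramd3 and Gimap6 (each 0.93; Spearman ranks 63, 33 and 70), but Gramd3 ranked 274 in the WT points alone and 2 in the KO points. Other partners also ranked unevenly, with Dnajb9 at 128 in WT and 3 in KO, Snx9 at 114 and 10 and Ints6 at 1 and 98. Their correlations in WT and KO alone were 0.78 and 0.95 for Dnajb9, 0.68 and 0.91 for Snx9 and 0.98 and 0.85 for Ints6. Those of Gramd3 were 0.79 and 0.98.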

How the data were processed

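The authors deposited unnormalised UMI counts of every gene in every barcode for each of the 2 libraries. The matrix header names Cell Ranger 3.0.2, and the submitters' processing notes name mm10 and Seurat 4. Cells with 200 to 6000 genes and at most 15% mitochondrial UMIs were kept, as in the study. Both libraries were clustered together (scanpy 1.11.5, leidenalg 0.10.2, 2000 variable genes, 30 components, 15 neighbours, resolution 1) without the members and listed genes, and clusters were named by the class with the largest share of raised markers. Unnamed cells came to 7.47% in WT and 4.65% in KO. Scrublet called 0 and 4 doublets and was taken as not having worked, so no cell was removed for it.

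Levels are summed counts per 1000000 UMIs of the class (CPM) with exact Poisson intervals, ratios have exact conditional binomial intervals and shares Clopper-Pearson intervals, all at 95%. Levels depend on how deep each cell was, since deep cells weigh more in a sum. In simulated counts for macrophages and monocytes the ratio interval held the true value for 95.3% of 8607 genes. Those counts were drawn with the Poisson error that the interval assumes. The figure thus checks the calculation only and cannot speak for UMIs that gather in few cells. Gene positions are from GENCODE M21 (GRCm38), which holds 30934 of the 31053 identifiers. The text names the members, the listed genes and the 3 genes most like each member, on log2(CPM + 10) among genes with at least 200 UMIs; 1 of these genes is not reported here. Other genes, cell splits and clusters named in the text were chosen after values were seen. The members and lists were chosen with earlier results of these data known. Alternatives were another filter, resolution, clustering, classing, doublet removal, scaling and thinning.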

Additional observations from a re-analysis of the deposited data

Results flagged for a closer look

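Il10 and Smad7 were past 2-fold in opposite directions in different cell classes, and the differences between classes were not tested. The log2 ratio of KO over WT for Il10 was 1.45 in cDC2-like cells and -2.24 in eosinophil-like cells, past 2-fold in 9 of 11 and 7 of 9 other ways of processing. For Smad7 it was 1.26 in T cell-like cells, -1.22 in eosinophil-like cells and -1.67 in neutrophil-like cells, past 2-fold in 8 of 11, 4 of 9 and 10 of 10. In the unnamed cluster with raised Cd3e, Cd3d and Cd3g, outside the T cell-like class, the Smad7 ratio was -0.52 (-0.91 to -0.14).

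Il10 was also present in cells that no named class held. An unnamed cluster of 73 WT and 46 KO cells, led by Mcpt1, Mcpt2 and Icos and holding raised Cd3e, Cd3d and Cd3g, had 401 CPM of Il10 in WT (140 UMIs) and 194 in KO (63 UMIs), above the epithelial-like level. In each library 5 cells held most of its Il10 UMIs, 65.7% in WT and 84.1% in KO. The 14 WT and 10 KO cells with a UMI of Foxp3 held 57 and 45 of these UMIs.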

How the results depend on the processing

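In macrophages and monocytes Il10 stayed above 0 and Il10ra, Il10rb, Smad7 and Cx3cr1 below 0 under all 11 alternatives, and no member there passed 2-fold under any of them. The ratios ranged from -0.56 to -0.27 for Il10ra, -0.80 to -0.28 for Il10rb, -0.71 to -0.046 for Smad7 and -0.33 to -0.035 for Cx3cr1, so the last values of Smad7 (equal weight for each cluster) and Cx3cr1 (stricter filter) lay near 0. Tgfb1, Tgfbr1 and Tgfbr2 changed sign around 0. The Il10 log2 ratio there, 0.16, became 0.26 with classes from marker scores, 0.25 without the top 3% of Scrublet scores, 0.26 as mean of the cells' own values, 0.34 relative to the median of all genes and 0.34 with equal weight for each cluster. The last was added after seeing the data, as was counting intermediate cells as resident. In resident macrophage-like cells the Il10 ratio, 0.97, became 0.42 at resolution 0.5, 0.72 with each library clustered alone, 0.65 with marker scores, 1.31 as mean of cells, 1.19 relative to the median and 1.29 without the 5 highest cells. The 8 pairs of gene and class past 2-fold (of 56 measured) became 4 at resolution 2 (all 4 among the 8), 4 with libraries clustered alone (2 among the 8), 9 with marker scores (3 among the 8) and 14 without the 5 highest cells (6 among the 8), and the other settings kept 5 to 8 of them. For all genes the share past 2-fold was 4.69% to 21.3% by class in the reported setting and was not computed under the others. The median of the lists, -0.16, became -0.27 with the stricter filter and 0.019 relative to all genes. Il10 in eosinophil-like cells turned from -2.24 to 0.42 with the stricter filter. The cause of these shifts was not tested. Of the log2 ratios under the alternatives 564 stayed within the counting interval of the reported value, 104 left it and 1 reversed a called direction. All 32 shares moved with the thinning depth. Classes under 50 cells and genes under 50 UMIs limit what these libraries can show. No paired analysis was possible because each genotype has 1 library.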

Other observations

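Mature dendritic cell-like cells (19 WT, 40 KO), led by Fscn1 and Ccl22, were under the 50 cells asked of the main classes. Their Il10 level was 18.7 CPM (3.87 to 54.8, from 3 UMIs) in WT and 92.99 (70.6 to 120.2, from 58 UMIs) in KO, while Cx3cr1 was at 0 in both libraries. In KO 5 of the 40 cells held 91.4% of the Il10 UMIs.

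In inflammatory monocyte-like cells the KO cells with a UMI of Ifnb1 (31 cells) had 703 CPM of Il10 and those without (456 cells) had 434. Cells of this class with a UMI of Ly6c2 had less Il10 than those without in both libraries, with 169.9 against 1113 in WT and 363 against 574 in KO. The WT value of 1113 comes from 31 cells. The class joins clusters with raised Ly6c2 and the cluster led by Retnla, in which Ly6c2 was not raised, Il10 was at 967 and 622, and 5 of 26 WT cells held 67.0% of the UMIs, and the split was not made within clusters. These splits were chosen after values were seen.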
